A study of Oryctolagus cuniculus with 4 samples.

Results

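The cells described here were urothelial cells of the rabbit bladder in which uroplakin transcripts were detected and KRT5 transcripts were not. They were chosen by their own counts. A cell had to have at least 500 UMIs (unique molecular identifiers, each standing for 1 captured RNA molecule), at least 200 genes and at most 15% of its UMIs in 13 mitochondrial protein genes. The urothelial gate then asked for KRT15, KRT18 and KRT7 together at 0.2% of UMIs or more, DCN and LUM together under 0.5%, and no UMI of PTPRC. Within this gate, a cell with at least 2 UMIs of UPK1B and UPK3B together and no UMI of KRT5 was taken, and is called a uroplakin cell from here on. There were 465 uroplakin cells among 1446 cells of the urothelial gate, 21945 kept cells and 25659 barcodes.

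The cells came from 2 rabbits taken 10 days after a focal resection of the bladder mucosa (Injury_1 and Injury_2) and from 2 rabbits with a normal bladder (Normal_1 and Normal_2). The labels give the tissue of all 4 samples as urothelium. A piece of mucosa was dissociated with collagenase and sequenced as 1 droplet library per rabbit with 3' chemistry, and the paper calls the rabbits of each condition biological replicates. The rabbits were adult New Zealand rabbits per the paper's methods. The question the design poses for these cells is how the uroplakin-bearing cells of the urothelium look at the time when new urothelium has just covered the wound.

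The urothelium is a layered epithelium. Basal cells lie on the basement membrane and carry KRT5 and the transcription factor TP63, intermediate cells lie above them, and large umbrella cells face the urine. Uroplakins are membrane proteins that assemble into the rigid plaques of the umbrella cell's apical surface, where they reach the surface in fusiform vesicles and form part of the barrier to urine. UPK1B is a tetraspanin and UPK3B a single-span membrane protein of this family. UPK3B is also known from mesothelium.

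The libraries held between 28745017 and 47881609 UMIs and between 5823 and 6884 barcodes each, with Normal_1 the shallowest. Any pair of libraries shared 8 to 13 barcode sequences, and 0 of these belonged to uroplakin cells in both. In each pair with Injury_1, 1 uroplakin cell carried such a shared barcode. The median uroplakin cell had 10766 and 15650 UMIs in Injury_1 and Injury_2 and 12437.5 and 13482 in Normal_1 and Normal_2. Of the 465 cells, 17 (3.66%) were among the 5% of their library with the highest doublet score.

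Marker lists were used to check the urothelial label. The list of KRT15, KRT18, KRT7 and CDH1 summed to 4311 to 6662 CPM (UMIs per 1000000 UMIs of the sum) in the uroplakin cells of the 4 rabbits, but the keratins had chosen the cells. CDH1, the cadherin of epithelial junctions, was not part of the rule and stood at 170 and 178 CPM in Injury_1 and Injury_2 and at 280 and 66.7 CPM in Normal_1 and Normal_2. Markers of T and NK cells summed to 0 to 9.54 CPM, those of B, plasma and mast cells to 0 to 1.35 CPM, and glial markers were at 0 in every rabbit. KRT20, UPK1A, UPK2 and UPK3A were not analysed here, so the umbrella layer in the strict sense was not separated from uroplakin-positive intermediate cells, and the cells are named only by what chose them.

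RNA of stromal cells was present to a different extent in each rabbit. The 6 fibroblast markers measured summed to 635 and 470 CPM in Injury_1 and Injury_2 and to 67.5 and 4835 CPM in Normal_1 and Normal_2. In Normal_2 the sum rested on 2 of its 7 uroplakin cells, which held 471 of 507 fibroblast UMIs, and 1 of these had a high doublet score. Myeloid markers summed to 19.4 and 94.2 CPM in the injured rabbits and to 1.41 and 0 CPM in the normal ones, with 8 and 7 of 9 markers detected in the injured and 1 and 0 in the normal rabbits. Of the complement C1Q chains, which define macrophages, C1QB was at 0 in all 4 rabbits, C1QA was detected in both injured rabbits and C1QC in Injury_1, and neither was detected in the normal rabbits.

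The uroplakin cells were unevenly spread over the rabbits. Injury_1 gave 306 of them, Injury_2 96, Normal_1 56 and Normal_2 7. As a share of the urothelial gate they made up 56.9% of 538 cells in Injury_1 (95% Wilson interval 52.7 to 61.0), 28.4% of 338 in Injury_2 (23.9 to 33.4), 13.6% of 411 in Normal_1 (10.6 to 17.3) and 4.40% of 159 in Normal_2 (2.15 to 8.81). The intervals cover counting error only. Both injured rabbits lay above both normal rabbits, and each rabbit's interval was clear of the others.

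The mean share was 42.6% ± 20.1 (SD, n = 2) in injured and 9.01% ± 6.52 (n = 2) in normal bladders, a difference of 33.6 percentage points. The two-sided exact permutation test over the 4 rabbits gave p = 0.33, which is the smallest value that 2 against 2 rabbits allow, so the design cannot call this difference. The order of the rabbits was the same when gate cells of at least 3000 UMIs were thinned to 3000 UMIs. At that depth the shares were 27.9%, 5.57%, 2.76% and 0.556% in Injury_1, Injury_2, Normal_1 and Normal_2. Cells below it were left out, 50, 21, 58 and 21 in the same order, so these denominators differ from the main ones. With all kept cells as the denominator, the means were 3.38% ± 2.33 (SD, n = 2) and 0.708% ± 0.837 (n = 2). A higher share of uroplakin cells and a smaller number of other cells of the gate cannot be told apart from these shares.

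The other classes of the gate showed where the remaining cells lay. Cells with KRT5 and no uroplakin UMI, called KRT5 cells here, took 7.99% and 18.6% of the gate in Injury_1 and Injury_2 and 33.1% and 33.3% in Normal_1 and Normal_2. Cells in which neither was detected took 14.3% and 23.1% in the injured and 37.5% and 49.7% in the normal rabbits. Cells with both uroplakin and KRT5 took 8.74% and 18.0% in the injured and 3.41% and 3.14% in the normal rabbits. For each of these 3 classes the injured and normal rabbits did not overlap, and the exact permutation p was again 0.33.

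**Figure D1:**
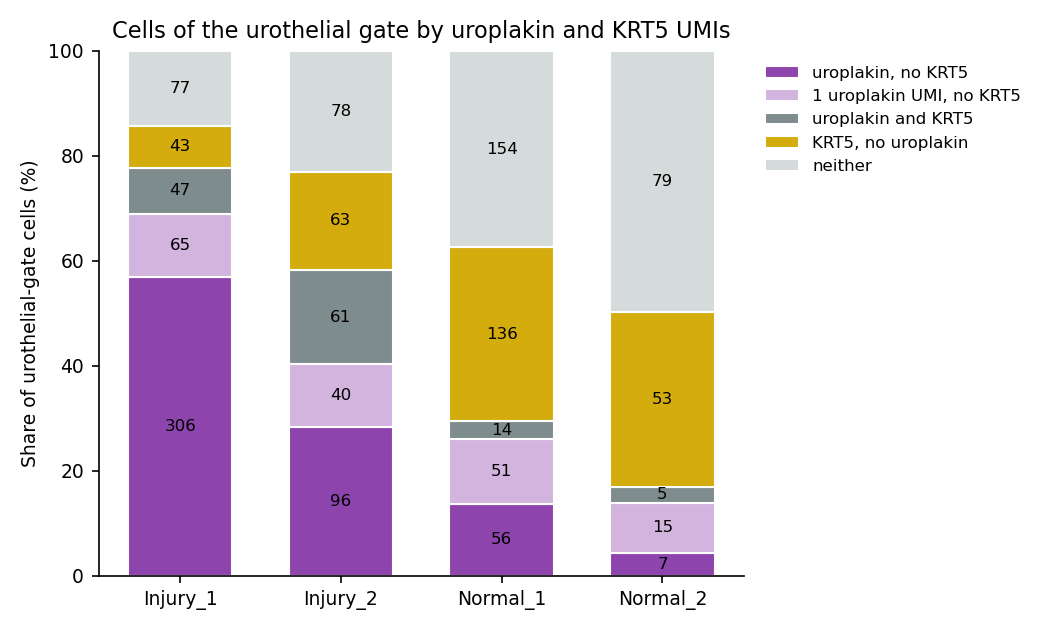
Share of urothelial-gate cells (%, y axis) in each class for the 4 rabbits (x axis), with the number of cells written in each segment. The dark purple segment, the uroplakin cells, holds 306 and 96 cells in the injured rabbits and 56 and 7 in the normal ones.

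The uroplakin counts that chose the cells were low. The median cell had 4 uroplakin UMIs in Injury_1 and 3 in each of the other rabbits, and the highest had 19, 14, 10 and 4 in Injury_1, Injury_2, Normal_1 and Normal_2. Just inside the threshold, 130 cells had exactly 2 uroplakin UMIs, and just outside it, 171 cells without KRT5 had exactly 1. Free RNA in the droplets is a source of single UMIs. Among 7684 stromal cells, with DCN and LUM together at 1% of UMIs or more, 8 (0.104%) had 2 or more uroplakin UMIs at a median depth of 7446.5 UMIs, against a median depth of 12330 UMIs in the uroplakin cells. Of these 8, 7 were in Injury_1 (0.329% of its 2126 stromal cells), 1 was in Normal_1, and 0 were in Injury_2 and 0 in Normal_2.

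UPK3B supplied most of the uroplakin counts. It was detected in 306 of 306 uroplakin cells of Injury_1, 96 of 96 of Injury_2, 52 of 56 of Normal_1 and 6 of 7 of Normal_2, while UPK1B was detected in 123, 15, 29 and 4 of them. Cells with UPK1B alone numbered 0 and 0 in the injured rabbits and 4 and 1 in the normal ones. The level of UPK3B was 366 and 186 CPM in Injury_1 and Injury_2 and 159 and 134 CPM in Normal_1 and Normal_2.

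The mix of the uroplakins differed between rabbits. UPK1B made up 14.4% of uroplakin UMIs in Injury_1 (95% Wilson interval 12.7 to 16.2) and 8.53% in Injury_2 (5.85 to 12.3). In Normal_1 it made up 36.5% (29.8 to 43.8) and in Normal_2 30% (14.5 to 51.9, from 20 UMIs). Both injured rabbits lay below both normal ones. UPK1B and UPK3B chose the cells, so these shares are a description with no test, and they compare rabbits, not the abundance of the transcripts.

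Of the keratins that set the gate, KRT15 stood at 4275 and 3810 CPM in Injury_1 and Injury_2 and at 1661 and 2708 CPM in Normal_1 and Normal_2. KRT18, a keratin of simple and superficial epithelia, lay between 1690 and 2308 CPM and KRT7 between 150 and 382 CPM. In KRT5 cells of the same rabbits, KRT15 lay between 2206 and 6167 CPM, KRT18 between 1061 and 1889 CPM and KRT7 between 140 and 526 CPM. In each rabbit KRT15 was lower and KRT18 higher in uroplakin cells than in KRT5 cells. These genes were part of the gate and were left out of every test.

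PPP1R3C and TXNIP were proposed as marks of these cells from earlier results on the same data. PPP1R3C, a subunit that brings protein phosphatase to glycogen, was at 17.5 CPM (65 UMIs) in Injury_1, 2.77 (4 UMIs) in Injury_2, 12.7 (9 UMIs) in Normal_1 and 9.54 (1 UMI) in Normal_2. In KRT5 cells it was at 1.22, 5.27, 2.13 and 0 CPM, so that Injury_2 ran against the other rabbits, and too few counts were present for a test. TXNIP, which binds thioredoxin and limits glucose uptake, was at 18.6, 25.6, 45.0 and 9.54 CPM in uroplakin cells and at 11.02, 14.0, 6.94 and 8.96 CPM in KRT5 cells, in the same order of rabbits. The log2 fold change of 1.24 is given as a description, since the gene was proposed from these data. In cells with neither marker, TXNIP was at 14.0 to 32.2 CPM.

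The next comparison asked how uroplakin cells differed from KRT5 cells of the same rabbit. UMIs were summed per rabbit and class, and edgeR's quasi-likelihood test was applied with the rabbit as a block and Benjamini-Hochberg adjusted p-values. The fit held uroplakin cells of 3 rabbits, because the 7 cells of Normal_2 were below the minimum of 10 cells. Of 5200 genes tested, 1208 (23.2%) differed, 541 (10.4%) being higher and 667 (12.8%) lower in uroplakin cells. Without scaling beyond UMI totals the split was 717 higher and 486 lower, and the median over all genes was 0.12 on the log2 scale. Both classes were cut on KRT5 and uroplakin UMIs of these very cells, so genes that vary with either were bound to differ, and the counts describe the classes. The low-count filter ran over all classes, so a gene near 0 in uroplakin cells could enter through classes where it was high. Without Injury_1 the count was 336, and without the block 79. KRT5 cells were deeper in every rabbit, with medians of 19474, 18424, 14274.5 and 22599 UMIs, and in cells of 5000 to 30000 UMIs the count was 1122.

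Among the genes with the largest rise were CRISP3, SNX31, DAB2, FLRT3, FABP3 and UCHL1. CRISP3, a secreted cysteine-rich protein, was at 921 CPM in Injury_1, 368 in Injury_2 and 238 in Normal_1 in uroplakin cells, against 28.2, 30.7 and 4.27 CPM in KRT5 cells, a log2 fold change of 4.45 (SE 0.28, adjusted p = 6.58e-06). SNX31, a sorting nexin known in umbrella cells for binding uroplakin cargo, was at 117, 54.7 and 139 CPM against 6.12, 14.9 and 7.47 (log2 fold change 3.20, SE 0.34, adjusted p = 0.000152). Every rabbit of the fit showed both differences.

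DAB2, an adaptor of clathrin-coated endocytosis, was at 157, 63.7 and 151 CPM in uroplakin cells of Injury_1, Injury_2 and Normal_1 and at 13.5, 7.90 and 6.94 CPM in KRT5 cells (log2 fold change 3.47, SE 0.25, adjusted p = 8.74e-06). FLRT3, a leucine-rich transmembrane protein, rose by 3.63 on the log2 scale, FABP3, a fatty acid binding protein, by 2.79, and UCHL1, a ubiquitin hydrolase, by 4.24. UCHL1 had no UMI in KRT5 cells of Injury_1, Injury_2 and Normal_2 and 3.74 CPM in those of Normal_1.

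Counts assigned to the name SF3B2, a splicing factor gene, made up 2.59% and 1.58% of all UMIs of uroplakin cells in the injured rabbits and 1.79% and 1.99% in the normal ones. In KRT5 cells they stood at 2213, 3300, 829 and 468 CPM, against 25856, 15804, 17857 and 19853 CPM in uroplakin cells (log2 fold change 3.24, SE 0.30, adjusted p = 4.71e-05). Its neighbours in the RefSeq annotation of assembly mOryCun1.1 include CST6, GAL3ST3, CATSPER1 and PACS1. Whether all of these UMIs came from SF3B2 was not tested.

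The 7 uroplakin cells of Normal_2, which no paired fit used, can be set beside these values. CRISP3 was at 334 CPM in them and at 6.27 CPM in KRT5 cells of that rabbit, SNX31 at 114 against 6.27 CPM, DAB2 at 200 against 12.5 CPM and UCHL1 at 47.7 against 0 CPM. FLRT3 was at 9.54 CPM, which is 1 UMI, against 0 CPM. Each of these differences had the same direction as in the other rabbits, on few cells and with no test.

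Among the genes with the largest fall were LAMB3, KRT16, CLCA2, COL8A1, NRG1, NRM (-3.88) and MCUB (-3.41). LAMB3, a chain of the laminin that anchors basal cells, was at 2.69, 7.62, 0 and 0 CPM in uroplakin cells of Injury_1, Injury_2, Normal_1 and Normal_2 and at 144, 32.5, 372 and 477 CPM in KRT5 cells (log2 fold change -5.08, SE 0.62, adjusted p = 0.00034). The classes did not overlap in any rabbit. KRT16, a keratin of activated epithelium, fell by 5.05 on the log2 scale. KRT16 and KRT17 are related keratins, and whether counting split reads between them was not tested. CLCA2, a surface protein of basal cells in other epithelia, fell by 4.42. COL8A1, a short-chain collagen, had a log2 fold change of -3.89 and NRG1, a ligand of ERBB3 and ERBB4, one of -3.72.

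**Figure D2:**
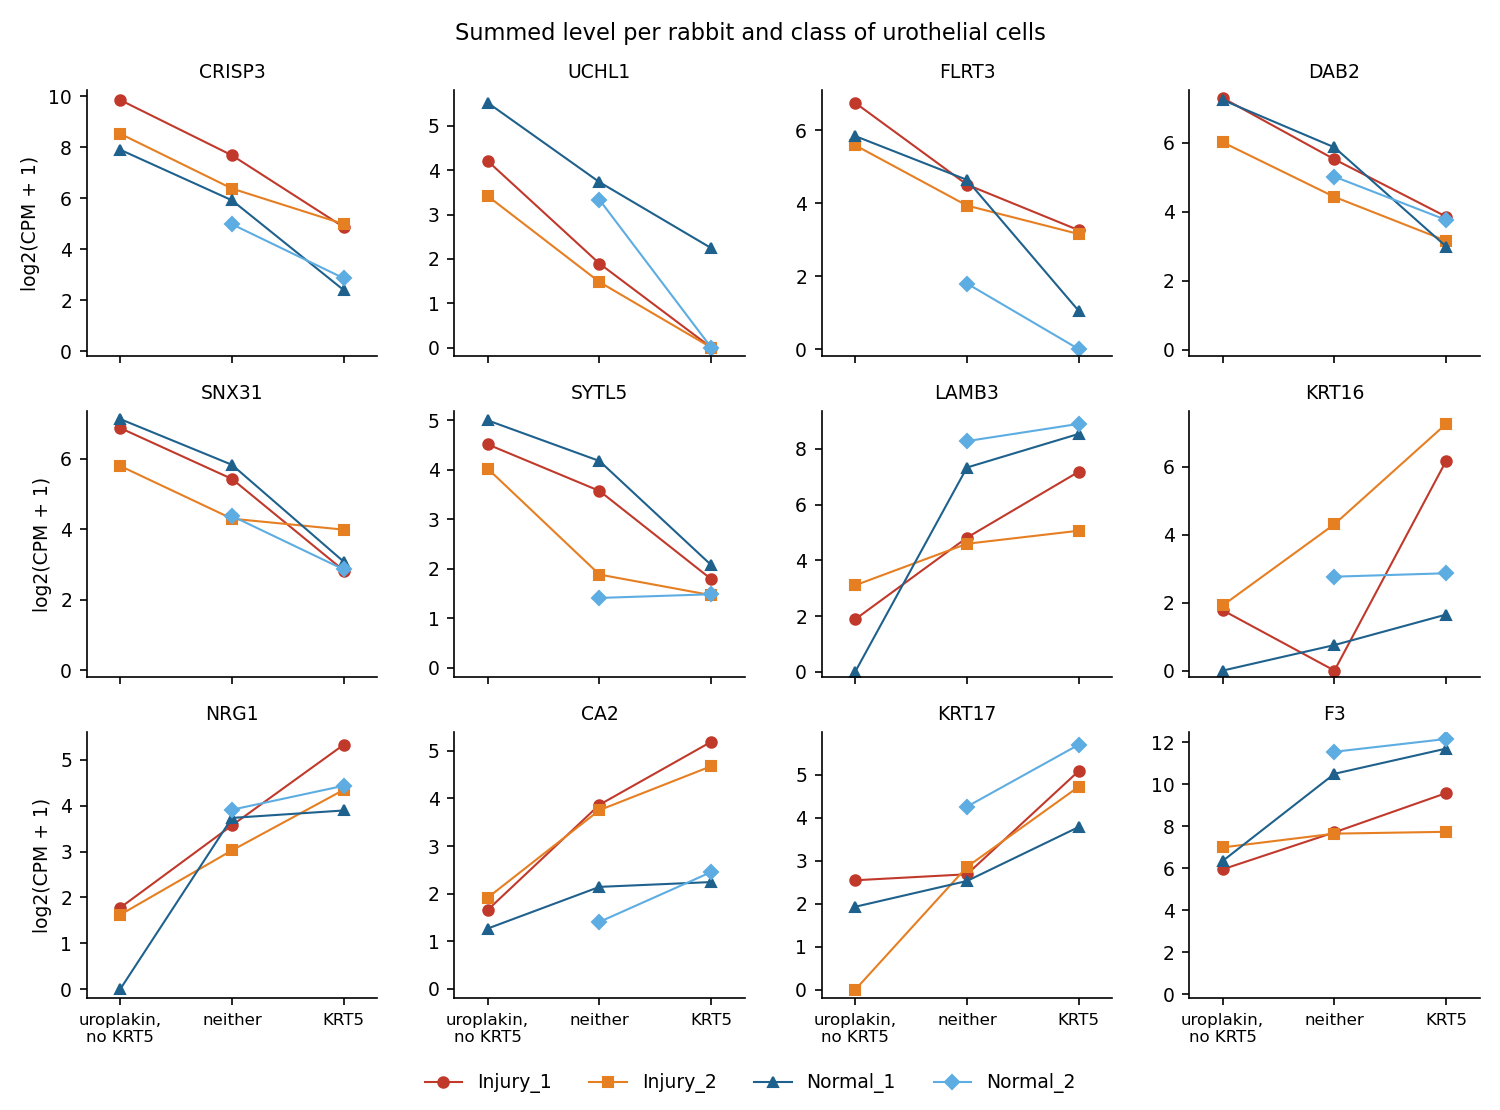
Summed level, log2(CPM + 1) on the y axis, of 12 genes in uroplakin cells, in cells with neither marker and in KRT5 cells (x axis), with 1 line per rabbit and no uroplakin point for Normal_2, which had 7 such cells. CRISP3, UCHL1, FLRT3, DAB2, SNX31 and SYTL5 lie highest in uroplakin cells, and LAMB3, NRG1, CA2, KRT17 and F3 lie lowest there.

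Each list count that follows stands beside the shares over all genes tested, 10.4% higher and 12.8% lower in uroplakin cells. Lists whose tested genes were mostly lower in uroplakin cells were those of the basal layer, of wound repair and of proliferation. Of the 9 tested genes of basal layer and basement membrane adhesion, 7 were lower in uroplakin cells and 0 higher (median log2 fold change -2.65, against -0.01 over all genes tested). In the injury comparison, run on uroplakin cells alone, 6 genes of this list passed the low-count filter. LAMA3, the partner chain of LAMB3, was at 4.04, 5.54 and 7.03 CPM in uroplakin cells of Injury_1, Injury_2 and Normal_1 and at 29.4, 14.0 and 197 CPM in KRT5 cells. KRT17 fell by 3.12 on the log2 scale, and the integrin chains ITGA2 and ITGA6, CD44 and PTHLH were the other calls. TP63 was not called: it stood at 11.8, 15.9, 25.3 and 38.1 CPM in uroplakin cells of Injury_1, Injury_2, Normal_1 and Normal_2 and at 24.5, 29.0, 20.8 and 14.3 CPM in KRT5 cells (log2 fold change -0.55, adjusted p = 0.21).

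Of the 11 tested wound and protease genes, 9 were lower and 0 higher (median log2 fold change -1.50). F3, tissue factor, which starts clotting, was at 60.6, 126, 80.2 and 66.7 CPM in uroplakin cells of Injury_1, Injury_2, Normal_1 and Normal_2 and at 763, 212, 3316 and 4556 CPM in KRT5 cells (log2 fold change -3.16, SE 0.63, adjusted p = 0.0047). F3 thus varied little among the uroplakin cells of the 4 rabbits and over a wide range among their KRT5 cells. TIMP1, an inhibitor of metalloproteases, fell by 1.96 on the log2 scale. PLAU, the urokinase, TFPI, an inhibitor of the tissue factor pathway, SERPINB5 and the metalloproteases MMP1, MMP10 and MMP13 were the remaining calls with KRT16.

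All 6 tested proliferation genes were lower in uroplakin cells (median log2 fold change -2.32). Of the 17 genes listed, 8 were found in the data. In the injury comparison and the UPK1B split, run on uroplakin cells alone, 2 and 1 of these 8 passed the low-count filter. The count and the median of the 6 thus depend in part on the other classes having brought genes into the test. CDK1, the kinase of mitotic entry, was at 5.65, 4.16 and 1.41 CPM in uroplakin cells of Injury_1, Injury_2 and Normal_1 and at 55.1, 8.78 and 0.534 CPM in KRT5 cells, so that Normal_1 ran the other way at a very low level. MCM5, a part of the replication helicase, was at 7.27, 6.23 and 2.81 CPM against 61.2, 23.7 and 8.54 CPM (log2 fold change -2.51, SE 0.39, adjusted p = 0.00118), and CCNB2, a mitotic cyclin, had a log2 fold change of -2.65. CCNB2 was at 2.69, 0.693, 2.81 and 9.54 CPM in uroplakin cells of Injury_1, Injury_2, Normal_1 and Normal_2 and at 23.3, 10.5, 0.534 and 2.69 CPM in KRT5 cells, so that its fall was seen in the injured rabbits and not in the normal ones, where it stood on 1 to 3 UMIs. PCNA, the sliding clamp of replication, also ran the other way in Normal_1, at 148 CPM in uroplakin cells against 110.5 CPM in KRT5 cells, and so did TPX2, a spindle protein, at 7.03 against 3.74 CPM. MCM3 and MCM5 were lower in each rabbit of the fit. Without Injury_1, 2 of 7 proliferation genes were called.

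Genes of vesicle traffic to the apical surface held calls in the other direction. Of 12 tested, 4 were higher and 0 lower in uroplakin cells (median log2 fold change 0.49), against 10.4% and 12.8% of all genes tested. The calls were the synaptotagmin-like proteins SYTL5 (log2 fold change 2.87, SE 0.43, adjusted p = 0.000955) and SYTL4 (1.21), which tether secretory vesicles, with MAL2 (0.95), a protein of apical transport, and RAB11A, the GTPase of recycling endosomes. SYTL5 was at 21.8, 15.2 and 30.9 CPM in uroplakin cells of Injury_1, Injury_2 and Normal_1 against 2.45, 1.76 and 3.20 CPM in KRT5 cells. Without Injury_1, 1 of 12 was called.

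Transcription factors of urothelial differentiation were split, with 3 of 10 higher and 2 lower, against 10.4% and 12.8% of all genes tested. MYCL rose by 1.70 on the log2 scale, GRHL3, which is needed for umbrella cell maturation, by 0.97 and GATA3, a luminal factor of the urothelium, by 0.79, while ELF3 and EHF were lower. GATA3 stood at 2382, 1970, 1467 and 2937 CPM in uroplakin cells of Injury_1, Injury_2, Normal_1 and Normal_2 and at 1368, 1171, 632 and 328 CPM in KRT5 cells. PPARG, a central factor of the same program, was at 381 to 414 CPM in the uroplakin cells of all 4 rabbits and at 385 to 890 CPM in KRT5 cells, and was not called.

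Of the 3 tested umbrella-layer markers other than uroplakins, SNX31 was higher, EZR, which links membrane to actin, was lower (log2 fold change -0.62), and GPRC5A was not called. Junction genes were mixed: OCLN, a tight junction protein, was higher by 0.50 on the log2 scale, while CLDN1 (-1.10), CDH1 (-0.62) and EPCAM were lower, of 10 tested. The 1 of 10 higher lies near the 10.4% over all genes tested, where 12.8% were lower. Among 5 desmosome genes, PKP1 alone was called, with a log2 fold change of -1.20.

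**Figure D3:**
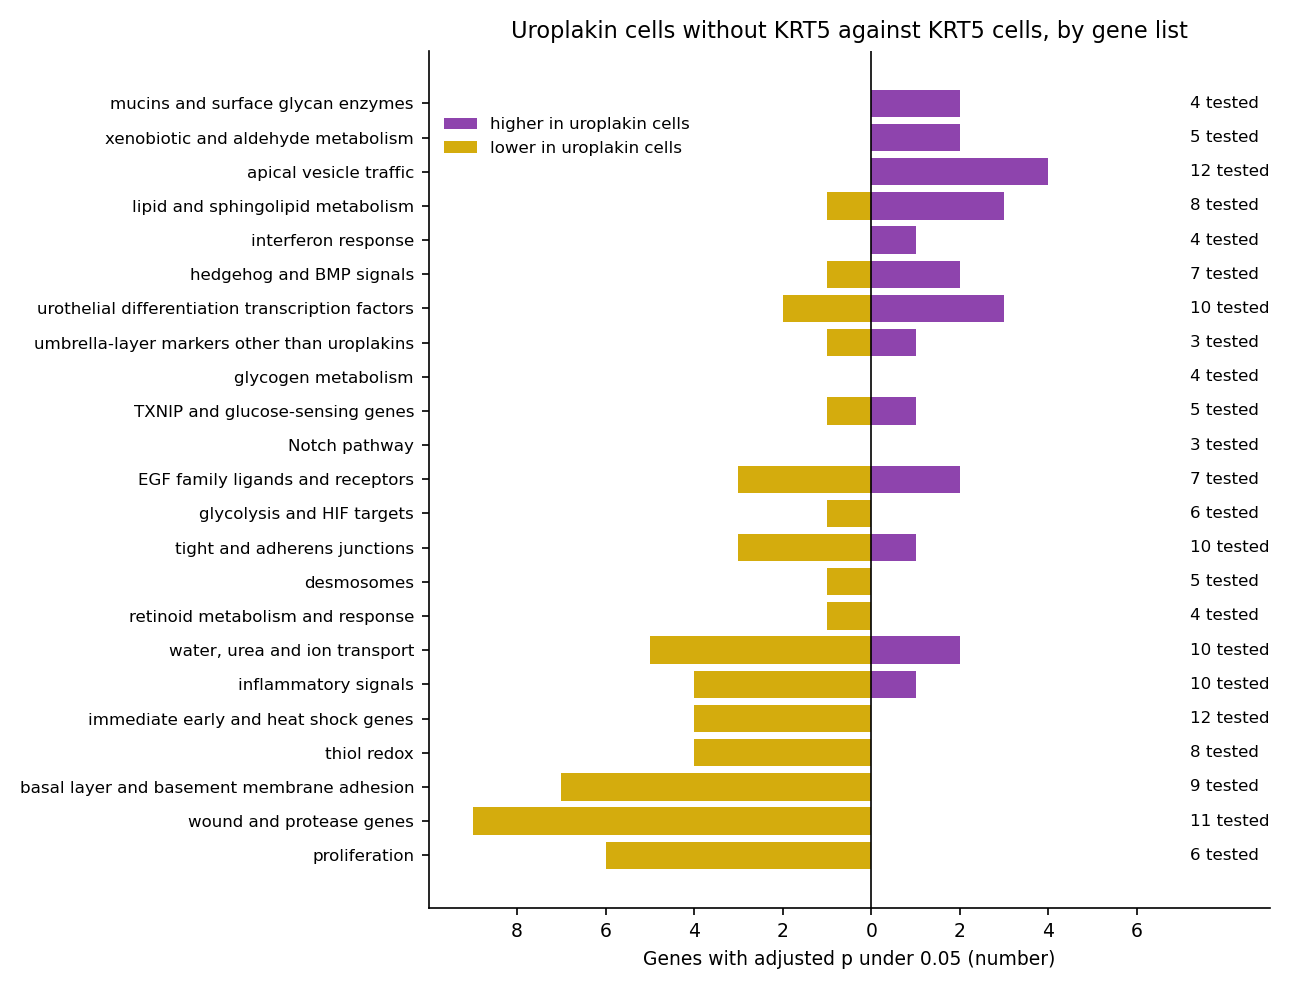
Number of genes of each list (y axis, with the number tested at the right) that differed between uroplakin cells and KRT5 cells at an adjusted p under 0.05 (x axis, purple to the right for higher and yellow to the left for lower in uroplakin cells). Wound and protease genes (9 of 11), basal layer genes (7 of 9) and proliferation genes (6 of 6) hold the most calls to the left, and apical vesicle traffic (4 of 12) the most to the right. Over all genes tested, 10.4% were higher and 12.8% lower, and genes near 0 in uroplakin cells could enter the test through other classes.

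Transport and metabolism divided by gene rather than by list. Of 10 tested genes of water, urea and ion transport, SLC44A4, a carrier of the choline transporter-like family, and SLC12A2, a sodium-potassium-chloride carrier, were higher, and AQP3, AQP8, CA2 and ATP1B3 were among those lower. In this list 2 were higher and 5 lower, against 10.4% and 12.8% of all genes tested. SLC44A4 was at 141, 92.1 and 5.63 CPM in uroplakin cells of Injury_1, Injury_2 and Normal_1 against 28.2, 24.6 and 1.07 CPM in KRT5 cells (log2 fold change 2.12, SE 0.26, adjusted p = 0.000332). CA2, a cytosolic carbonic anhydrase, fell by 3.52 on the log2 scale, and the water channel AQP8 had a log2 fold change of -3.73. AQP8 was near or at 0 in uroplakin cells (1.08, 0, 1.41 and 0 CPM in Injury_1, Injury_2, Normal_1 and Normal_2), and in KRT5 cells it was at 1.22 and 4.39 CPM in the injured and 74.7 and 47.5 CPM in the normal rabbits, so that Injury_1 showed almost no difference.

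CYP4B1, a cytochrome P450 of bladder epithelium, was at 4556, 3322, 869 and 839 CPM in uroplakin cells of Injury_1, Injury_2, Normal_1 and Normal_2 and at 911, 1545, 71.5 and 56.4 CPM in KRT5 cells (log2 fold change 2.12, SE 0.29, adjusted p = 0.000647). It was higher in uroplakin cells in each rabbit and higher in each injured rabbit than in each normal one in both classes. With MGST1, a microsomal glutathione transferase (0.81), it made 2 of 5 tested genes of xenobiotic metabolism. Of 8 lipid genes, FABP5 (1.00), ACSL5 (0.94) and ELOVL6 were higher and PLIN2, the coat of lipid droplets, was lower (-0.76).

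Among glycan genes, ST3GAL4, a sialyltransferase, rose by 1.17 and GALNT3, which starts mucin-type glycans, by 0.44, of 4 tested. Of 13 glycogen genes listed, 6 were found in the data and 4 were tested. Of these 4 glycogen genes, 0 were called by edgeR, 0 had an unadjusted p under 0.05 and DESeq2 called 0. PGM1, which interconverts glucose phosphates, was at 57.2 to 66.2 CPM in uroplakin cells of the 4 rabbits and at 19.2 to 62.5 CPM in KRT5 cells. HK2 (-0.88), VEGFA (-1.85) and CRABP2 (-1.01), the carrier of retinoic acid, were the calls of the glucose-sensing, hypoxia and retinoid lists in the falling direction.

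Signals also differed by member. In the EGF family, the receptor ERBB2 (1.11) and the ligand AREG were higher, while the ligands NRG1 and HBEGF and the receptor inhibitor ERRFI1 (-1.44) were lower, of 7 tested. Of 7 hedgehog and BMP genes, BMP2 was higher by 1.80 and SHH, which urothelium sends to stroma, by 0.94, and SMAD7, an inhibitor of the pathway, was lower (-1.57). SHH stood at 489, 193, 114 and 276 CPM in uroplakin cells of Injury_1, Injury_2, Normal_1 and Normal_2 and at 171, 106, 60.8 and 135 CPM in KRT5 cells. Of 3 Notch genes, edgeR called 0 and DESeq2 1, and 1 had an unadjusted p under 0.05.

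Of 10 inflammatory genes, PIGR, the transporter of secreted antibodies, was higher (1.40) and CXCL8 (-1.52), IL1A, NFKBIA and TNFAIP3 (-1.30) were lower in uroplakin cells. The 1 of 10 higher lies near the 10.4% over all genes tested, where 12.8% were lower. MYC (-2.21), FOSL1 (-1.33), FOS (-0.95) and JUN were lower among 12 immediate early and heat shock genes. Of 8 thiol redox genes, TXN, TXNRD1 (-1.43), SLC7A11 (-1.41) and SRXN1 (-0.85) were lower, and without Injury_1 1 of 8 was called. In these lists, IL1A, PLIN2 and CRABP2 ran against their call in Normal_1, and CLDN1 and ELF3 in Injury_2.

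Uroplakin cells were then compared with the cells of the gate in which neither uroplakin nor KRT5 was detected. In the same edgeR fit, 167 of 5200 genes (3.21%) differed, 55 (1.06%) being higher and 112 (2.15%) lower in uroplakin cells. This result rested on Injury_1: without it 2 genes were called, and of the 33 genes that the naming rule chose here 1 was still called. Without Normal_2 34 were called, without Normal_1 268 and without the block 1.

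CRISP3 and SF3B2, high in uroplakin cells against KRT5 cells, were at levels in between in the cells with neither marker. CRISP3 was at 204, 82.2 and 59.4 CPM in cells with neither marker of Injury_1, Injury_2 and Normal_1, below the 921, 368 and 238 CPM of uroplakin cells and above KRT5 cells (log2 fold change against neither 2.06, SE 0.24, adjusted p = 0.00222). DAB2 was higher in uroplakin cells by 1.56 on the log2 scale, FLRT3 by 1.62, UCHL1 by 1.94 and SNX31 by 1.35. SF3B2 stood at 8347, 5955 and 7102 CPM in the cells with neither marker. Cells with neither marker can hold cells whose uroplakin or KRT5 RNA was missed, which was not tested. For Injury_1 their median depth was 7611 UMIs, against 10766 in its uroplakin cells. The medians lay closer together for Injury_2 (15194.5 against 15650 UMIs) and Normal_1 (11481.5 against 12437.5). Normal_2 ran the other way, its cells with neither marker being deeper (17833 against 13482 UMIs).

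Other genes higher in uroplakin cells than in cells with neither marker were GALNT5 (1.58), GGH (1.47), TMEM45B (1.41) and NID2, a basement membrane nidogen (1.39). From the lists, SYTL4 (1.13), ST3GAL4 (0.91), HES1 (0.51), a target of Notch, and GATA3 (0.47) were higher. TMEM45B, a transmembrane protein, was at 175, 86.6 and 38.0 CPM in uroplakin cells of Injury_1, Injury_2 and Normal_1, at 51.7, 35.7 and 16.4 CPM in cells with neither marker and at 23.3, 23.7 and 3.20 CPM in KRT5 cells.

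Lower in uroplakin cells than in cells with neither marker were LAMB3 (-3.89), NRG1 (-2.74), COL8A1 (-2.67), CA2 (-2.45), OLFM3 (-2.31), RRAD (-2.04), MCM5 (-1.90), INSL5 (-1.86) and GLIPR1 (-1.84). LAMB3, NRG1, COL8A1 and CA2 were near 0 in uroplakin cells, and LAMB3 and NRG1 had no UMI in those of Normal_1. The low-count filter ran over all classes, so such genes could enter the test through classes where they were higher. Their falls describe the classes. KRT1 was at 10.8, 9.69 and 11.3 CPM in uroplakin cells of Injury_1, Injury_2 and Normal_1 and at 50.3, 47.3 and 43.0 CPM in cells with neither marker, a narrow spread in both (log2 fold change -2.23, SE 0.20, adjusted p = 0.00054). TFPI (-1.38), VEGFA (-1.21), CD44 (-1.07), PLAU (-1.03), MMP10 (-0.998), ATP1B3 (-0.90) and BMP3 (-0.65) were among those lower from the lists.

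IL1B, an interleukin also made by myeloid cells, was lower in uroplakin cells, with a log2 fold change of -1.48, and so was NFKBIA, with -0.75. IL1B stood at 50.4, 63.0 and 5.63 CPM in uroplakin cells of Injury_1, Injury_2 and Normal_1 and at 121, 229 and 3.41 CPM in cells with neither marker. The myeloid marker sums of uroplakin cells were 19.4, 94.2 and 1.41 CPM in these rabbits and were 146, 189 and 2.05 CPM in cells with neither marker. Their part in the IL1B result was not tested.

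Among themselves, uroplakin cells with UPK1B detected differed from those with UPK3B only. The comparison used the sums of 123 and 183 cells of Injury_1, 15 and 81 of Injury_2 and 29 and 27 of Normal_1, with the rabbit as a block. Of 4356 genes tested by edgeR, 97 (2.23%) differed, 39 (0.895%) being higher and 58 (1.33%) lower where UPK1B was detected. Without Injury_1 the count was 23, without Injury_2 32 and without the block 0, where 75 genes had an unadjusted p under 0.05 in edgeR. DESeq2 with the block called 30. UPK1B detection is itself a readout of the same cells, so the genes describe how the cells vary together with it.

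Among the genes higher in cells with UPK1B were CRISP3, DAB2, FLRT3 and UCHL1. CRISP3 was at 1259 CPM in cells with UPK1B and 716 in cells with UPK3B only in Injury_1, at 811 and 302 in Injury_2 and at 356 and 98.0 in Normal_1 (log2 fold change 1.19, SE 0.14, adjusted p = 8.82e-05). DAB2 rose by 1.38 on the log2 scale, FLRT3 by 1.15 and UCHL1 by 2.25, with SH3BGRL2 (1.34) and CLU, the secreted chaperone clusterin (1.02). The 4 cells with UPK1B in Normal_2, outside the fit, held CRISP3 at 427 CPM and the 3 others at 204 CPM. DAB2, UCHL1, SH3BGRL2 and CLU had the same direction there, on few UMIs. FLRT3 ran the other way, at 0 against 22.7 CPM, which is 1 UMI.

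A pair of sialic acid genes was among the rises. ST3GAL4, which adds sialic acid to glycans, was at 372 against 164 CPM in Injury_1, 395 against 108 in Injury_2 and 117 against 76.6 in Normal_1 (log2 fold change 1.32, SE 0.17, adjusted p = 0.000207). GNE, the enzyme that starts sialic acid synthesis, was at 72.2 against 38.9, 74.7 against 25.5 and 7.80 against 3.06 CPM (log2 fold change 1.08, SE 0.24, adjusted p = 0.0246). ST3GAL4 was higher in each rabbit of the fit. GNE was higher in Injury_1 and Injury_2, while its Normal_1 values stood on 3 UMIs against 1. In Normal_2, outside the fit, ST3GAL4 was at 279 against 272 CPM and GNE at 0 against 22.7 CPM, which is 1 UMI. CYP4B1 (0.38) and FABP5 (0.56) were higher from the lists. In Normal_2, CYP4B1 kept this direction, and FABP5 ran the other way at 312 against 613 CPM.

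Lower in cells with UPK1B were INSL5, an insulin-like peptide (-2.01), F3 (-1.99), CRABP2 (-1.56), CYP17A1 (-1.39), LDLRAD4 (-1.27), CD274 (-1.20), POU2F1 (-1.20) and EMP1 (-1.05). INSL5 was at 23.6 against 86.4 CPM in Injury_1 and 16.0 against 157 CPM in Injury_2. In Normal_1 it was at 7.80 against 9.19 CPM, on 3 UMIs in each group, so its fall rested on the injured rabbits. Normal_2, outside the fit, ran the other way at 32.9 against 0 CPM, on 2 UMIs. F3 was at 16.4 against 87.3 CPM in Injury_1, 48.0 against 138 in Injury_2 and 41.6 against 126 in Normal_1 (SE 0.23, adjusted p = 8.82e-05). Of 10 tested wound and protease genes 4 were lower, F3, TFPI (-1.02), PLAU (-0.94) and SERPINB5, and 0 higher. Over all genes tested, 1.33% were lower and 0.895% higher. IL1A (-0.75), PLIN2 (-0.75), IER3 (-0.70), EZR (-0.60), UGCG (-0.59), HBEGF (-0.54), DUSP1 (-0.47), GPRC5A (-0.47), DST (-0.44), HSPA8 (-0.44) and KLF5 (-0.38) were lower by smaller amounts, with GPRC5A slightly higher in Normal_1.

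**Figure D4:**
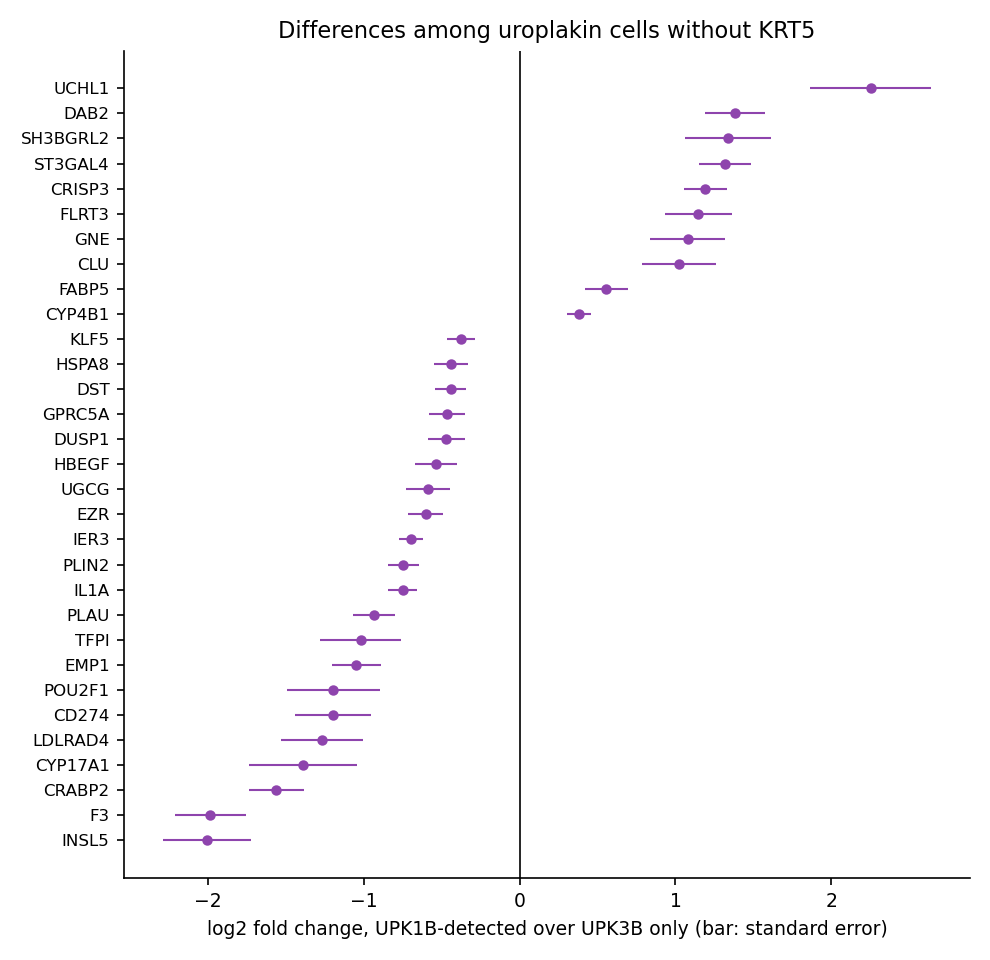
Log2 fold change (x axis, bars are the standard error) of 31 named genes (y axis) between uroplakin cells with UPK1B detected and those with UPK3B only, fitted over 3 rabbits. UCHL1 lies farthest to the right at 2.25 and INSL5 farthest to the left at -2.01. In Normal_1, INSL5 had 3 UMIs in each group.

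Injury was compared with normal within uroplakin cells over the 4 rabbits. Of 4904 genes tested by edgeR, 1 (0.0204%) was called, 0 higher and 1 lower in injured rabbits. DESeq2 called 24, and 588 genes had an unadjusted p under 0.05. The count moved between 1 and 341 when 1 rabbit was left out, the 341 arising without the 7 cells of Normal_2, 136 without Normal_1 and 18 without Injury_1.

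The gene called was PCSK5, a proprotein convertase that cleaves secreted precursors. It was at 7.54 CPM (28 UMIs) in Injury_1 and 5.54 (8 UMIs) in Injury_2, and at 99.9 CPM (71 UMIs) in Normal_1 and 95.4 (10 UMIs) in Normal_2, a log2 fold change of -3.90 (SE 0.35, adjusted p = 0.0116). Replicates of each condition lay close together. In KRT5 cells of the same rabbits PCSK5 was at 18.4, 9.66, 36.3 and 28.7 CPM, and the difference of the injury effect between the classes was -2.27 on the log2 scale (adjusted p = 0.050), which did not pass. The call was lost without Injury_2 and without the cells of high doublet score.

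For the lists, the injured and normal rabbits could only be set side by side. Over all genes tested, both injured sums lay above both normal sums in 26.3% and below them in 14.6%, so that the groups did not overlap in 40.9%. Of 9 inflammatory genes, 5 lay above in both injured rabbits and 1 below, with a median log2 fold change of 1.88. Of these 9, edgeR called 0 and DESeq2 4, and 6 had an unadjusted p under 0.05. Of 3 interferon genes, 3 lay above, with a median of 1.91; edgeR and DESeq2 called 0, and 2 had an unadjusted p under 0.05. IFIT3 was at 26.1 and 19.4 CPM in the injured and 7.03 and 0 CPM in the normal rabbits, and PSMB8 at 101 and 147 against 28.1 and 38.1 CPM. The Normal_2 sum, of 104869 UMIs from 7 cells, was too small for the 0 of IFIT3 to show a difference.

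The inflammatory genes above in both injured rabbits were CXCL8, a neutrophil chemokine, CCL2, IL1B, PIGR and B2M, the light chain of MHC class I. CXCL8 was at 498 and 112 CPM in Injury_1 and Injury_2 and at 25.3 and 28.6 CPM in Normal_1 and Normal_2, and B2M at 1180 and 746 CPM against 294 and 191 CPM. PIGR was at 57.4 and 150 CPM against 9.85 and 0 CPM. Below was PTGS2, the inducible cyclooxygenase, at 31.0 and 35.3 CPM in the injured and 64.7 and 420 CPM in the normal rabbits. All 44 PTGS2 UMIs of Normal_2 lay in its 3 cells with UPK3B only. The fibroblast marker sums of 635 and 470 CPM in the injured and 67.5 and 4835 CPM in the normal rabbits, the last of these mostly from 2 cells, belong to the same sums as every value of the injury comparison. Myeloid marker sums moved in the same direction, 19.4 and 94.2 against 1.41 and 0 CPM, and the part of either marker list in these levels was not tested.

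Further genes with separate groups, chosen after their values were seen, were CYP4B1 (adjusted p = 0.10), SLC44A4 (141 and 92.1 CPM against 5.63 and 0 CPM, adjusted p = 0.087) and INSL5 (62.7 and 139 CPM against 8.44 and 19.1 CPM). Of 6 tested basal layer genes, 4 lay above in both injured rabbits and 1, TP63, below, against 26.3% and 14.6% of all genes tested. Of these 6, edgeR and DESeq2 called 0, and 3 had an unadjusted p under 0.05. ITGA2 was at 25.3 and 27.7 CPM in the injured and at 7.03 and 0 CPM in the normal rabbits, and PTHLH at 15.9 and 18.0 CPM against 0 and 0 CPM. The Normal_2 sum held 104869 UMIs from 7 cells, too few for its 0 to show a difference at these levels.

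**Figure D5:**
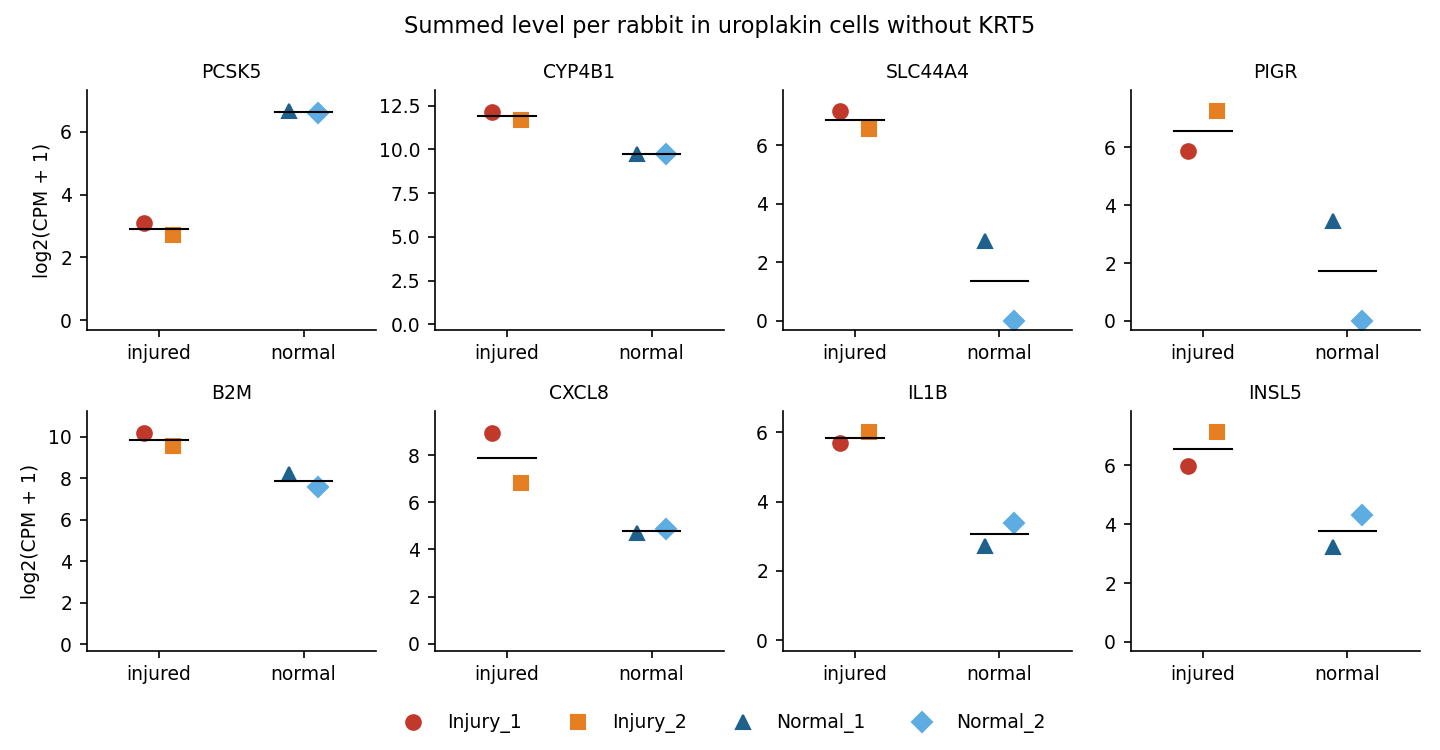
Summed level, log2(CPM + 1) on the y axis, of 8 genes in the uroplakin cells of injured and normal rabbits (x axis), with 1 point per rabbit and a line at the mean of each condition. PCSK5, the gene that passed the test, lies lower in both injured rabbits, and the other 7, chosen after their values were seen, lie higher in both but did not pass.

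Whether injured and normal rabbits differed alike in uroplakin cells and in KRT5 cells was tested as a difference of the injury effect between the classes, with the uroplakin cells of Normal_1 as the only normal ones. That arm is 1 rabbit, assumed to vary like the other groups, so what belongs to the condition and what to Normal_1 cannot be told apart. Fibroblast marker sums were 635 and 470 against 67.5 CPM in these uroplakin cells and 354 and 564 against 58.2 and 628 CPM in KRT5 cells, and their part was not tested. The test passed in 40 of 5200 genes (0.769%), 21 (0.404%) with the higher effect in uroplakin cells and 19 (0.365%) with the lower one. Without scaling beyond UMI totals the split was 9 and 24, with a median over all genes of -0.22, and without Injury_1, Injury_2 or Normal_2 the counts were 191, 101 and 178. Of 8 thiol redox genes, TXNRD1, thioredoxin reductase, and SRXN1, sulfiredoxin, were called. TXNRD1 was at 296 and 282 CPM in the injured and 551 CPM in the Normal_1 uroplakin cells, and at 640 and 335 CPM in the injured and 3137 and 1792 CPM in the normal KRT5 cells. SRXN1 stood at 408 and 395 CPM against 305 CPM in uroplakin cells and at 538 and 440 against 1167 and 1029 CPM in KRT5 cells.

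HSPA8, a constitutive chaperone, showed the lower effect in uroplakin cells. It was at 3368 and 3222 CPM in the injured and 5329 CPM in the Normal_1 uroplakin cells, and at 6568 and 4661 against 2442 and 4503 CPM in KRT5 cells. ITGA2, the alpha chain of a collagen-binding integrin, had the higher effect, at 25.3 and 27.7 CPM against 7.03 CPM in uroplakin cells and at 130 and 66.7 against 287 and 202 CPM in KRT5 cells.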

How the data were processed

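Droplet-based single-cell RNA sequencing was performed on bladder mucosa of 2 injured and 2 normal rabbits, with 1 library per rabbit. The authors deposited UMI counts per gene and cell barcode, without normalization, from Cell Ranger (version 6.0.1 per the file headers). The genome release is not given in the sources used here, and coordinates and sequences were not used here. Of 18475 genes, 9769 had a unique symbol.

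Cells were filtered and classed by the counts given in the text. Doublets were scored with Scrublet in scanpy 1.11.5 and kept in the main results. Counts were summed per rabbit and class, where a class had at least 10 cells. The quasi-likelihood test was run per gene in edgeR 4.0.16 and R 4.3.3 after filterByExpr and TMM normalization, with Benjamini-Hochberg adjustment over all genes tested and a threshold of 0.05. Comparisons of classes carried the rabbit as a block, because classes of the same number came from the same rabbit. CPM is UMIs per 1000000 UMIs of the sum. The 22 genes that set the gate, mitochondrial ones included, stayed in the totals and were left out of the tests. P-values of the injury comparison within uroplakin cells rest on the spread between these rabbits. Those of the fits with the rabbit as a block rest on how alike the differences were across rabbits. Their spread was estimated over all classes of the fit. Shares were compared with two-sided exact permutation tests in scipy 1.17.1. The edgeR test was checked on simulated counts.

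The members and the 24 gene lists were chosen with earlier results of these data known. The lists held 381 genes, of which 218 were found in the data under a unique symbol. Fewer passed the low-count filter, so each list result covers only a part of its list. Named genes were UPK1B, UPK3B, KRT5, KRT7, KRT15, KRT18, PPP1R3C, TXNIP, TP63, KRT17 and CDH1 as values. In each comparison they were also the 8 genes with the largest rise and the 8 with the largest fall among those called that had a symbol, 20 CPM or more on average in the group where they were higher and the same direction in every rabbit. Of each list they were up to 3 called genes, or the 2 with the highest level where none was called. The other called genes of a list were named after their values were seen, to complete its count.

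Alternatives were other limits on mitochondrial share, depth, uroplakin UMIs and stromal RNA, leaving out the top 5% of cells by doublet score, cells of 5000 to 30000 UMIs, DESeq2 1.42.0, its size factors, no scaling, no filter, other use of the block, a wider KRT5 class and the leaving out of each rabbit. The removal of cells with collagen I and III at 0.5% of UMIs or more was chosen after seeing the data. Values of some called genes are not reported here.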

Additional observations from a re-analysis of the deposited data

Results flagged for a closer look

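By edgeR's quasi-likelihood test of the interaction, the difference between injured and normal samples passed as unlike in uroplakin cells and in KRT5 cells for 40 genes. The normal uroplakin cells were those of Normal_1 alone, whose spread was taken from the other groups, so the condition and this rabbit cannot be told apart. The values that follow are the log2 difference in uroplakin cells minus that in KRT5 cells.

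It was negative for GLNB2 (-5.56), ADM (-4.69), GRAMD1C (-4.52), PLK2 (-3.35), ZNF711 (-2.12), NR4A3 (-2.09), BLVRA (-2.0), GMNN (-1.95), TOB1 (-1.90) and HSPA8 (-1.49). GLNB2 had no UMI in either class of Injury_2 and 190 CPM in the KRT5 cells of Injury_1, so its value rested on 1 rabbit. GRAMD1C, a sterol-binding membrane protein, was at 113 and 85.2 CPM in the injured and 107 CPM in the Normal_1 uroplakin cells, and at 60.0 and 38.6 against 1.60 and 0.896 CPM in KRT5 cells. BLVRA, biliverdin reductase, was at 20.2 and 19.4 against 84.4 CPM in uroplakin cells and at 66.1 and 72.9 against 61.9 and 68.1 CPM in KRT5 cells.

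It was positive for PTHLH (9.19), ITGA2 (3.57), SMAD7 (2.76), DHRS7 (2.35), NIPAL1 (2.20), CTNNBIP1 (2.15), ITM2A (1.94), INAVA (1.94), MMP1 (1.93), TXNRD1 (1.88) and SRXN1 (1.77). PTHLH had no UMI in the uroplakin cells of Normal_1, so the size of its value depends on the prior count of the fit. DHRS7, a dehydrogenase, was at 168 and 120 against 186 CPM in uroplakin cells and at 384 and 162 against 1640 and 895 CPM in KRT5 cells. MMP1, the interstitial collagenase, was at 532 and 192 against 243 CPM in uroplakin cells and at 1141 and 361 against 1729 and 1742 CPM in KRT5 cells.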

How the results depend on the processing

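The difference in share between injured and normal rabbits kept its sign in every alternative run, from 19.4 to 47.9 percentage points with 1 rabbit left out. Leaving out 1 rabbit gave 1 to 341 called genes for injury, 336 to 1183 against KRT5 cells, 2 to 268 against cells with neither marker, 101 to 191 for the difference of the injury effect and 23 to 72 for the UPK1B split. The injury and interaction counts then rest on conditions with 1 rabbit, assumed to vary like the others. For GLNB2, the difference of the injury effect ranged from -5.67 without Injury_2 to 0.17 without Injury_1.

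For injury, the count of 1 became 4 with a 10% mitochondrial limit, 4 with at least 3 uroplakin UMIs, 2 with at least 1, 0 without the cells of highest doublet score (563 at an unadjusted p under 0.05 in edgeR), 2 with DCN and LUM under 0.1%, 5 without cells of high collagen RNA (chosen after seeing the data), 224 without a filter on low counts, 24 with DESeq2 and 8 with the replicate number as a block. Deviations of same-numbered rabbits from their group means correlated with r = 0.011 over 4900 genes. With 2 rabbits per group both pairs give the same r, so this value cannot decide whether same-numbered rabbits were paired. Against KRT5 cells it became 518 with the 10% limit, 775 with DESeq2, 79 with no replicate block and 554 with KRT5 cells of any uroplakin count. Against cells with neither marker it became 21 with the 10% limit, 358 and 296 with at least 3 and at least 1 uroplakin UMIs, 470 without the filter and 1 with no replicate block. The difference of the injury effect gave 7 with the 10% limit and 303 without the filter. The UPK1B split gave 34 and 163 with at least 3 and at least 1 uroplakin UMIs, 30 with DESeq2 and 0 with no replicate block. Fewer cells entered with the stricter limits, and other causes were not tested. The difference of the injury effect without Normal_1 and the UPK1B split with the 10% limit could not be fitted. Over the named genes, 1955 alternative values kept direction and side of the threshold, 472 lost the call and 1 changed sign. Depth limits genes of few UMIs, above all in Normal_2.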
